A study of Mus musculus with 23 samples.

Results

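The difference between celastrol-treated and vehicle-treated db/db mice in hypothalamic RNA was compared between 6 h, 1 day and 4 days of treatment. The question was for which genes the celastrol minus vehicle difference itself changed from time to time, which is the interaction of treatment with time. All 23 arrays of the series entered, grouped by the treatment and time in their titles, and 18702 genes were tested. Of these, 11 genes passed. Each is described below beside the movement of the vehicle groups alone and of the celastrol groups alone, because an interaction is the celastrol movement minus the vehicle movement and either can produce it.

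The mice were male, homozygous for the diabetes mutation db (db/db), 8 weeks old and fed normal chow for 2 weeks. They were injected intraperitoneally with celastrol or with DMSO as vehicle, in 25 µl per day. The labels of the 6 h celastrol mice name a dose of 250 µg/kg, while those of the later celastrol mice, as used here, name none. Each of the 6 groups (vehicle or celastrol, at each of the times) had 4 arrays, except celastrol at 6 h, which had 3. There were no untreated mice and no mice with intact leptin signalling, so every comparison was made within db/db animals that received an injection. Arrays within a group are labelled as biological replicates, and the p-values measure the spread between these samples.

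Celastrol is a plant triterpenoid that lowers food intake and body weight in obese mice and has been described as a leptin sensitiser. Mice homozygous for db lack the signalling form of the leptin receptor, the sensor by which hypothalamic neurons read fat stores, and become obese and diabetic. Vehicle mice of such an experiment are handled and injected repeatedly too, so their own transcripts can move between sampling times. The tissue label was checked against neuropeptides of the hypothalamus. Mean log2 signals over the arrays were 13.05 for Pmch, the melanin-concentrating hormone precursor of the lateral hypothalamus, 12.81 for Hcrt, the orexin precursor, and 11.52 for Npy, the appetite-stimulating neuropeptide Y. Array medians lay between 8.57 and 8.64. Pomc, another peptide precursor of the hypothalamus, read 7.89 to 10.84 over the arrays and was below these medians on most. The 3 genes do not show which other tissue the samples held, and markers of such tissue are given below. In whole tissue, fewer cells of a type and less RNA per cell cannot be told apart.

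The F test over both changes (limma, Benjamini-Hochberg adjustment over all genes, threshold 0.05) was passed by 11 of 18702 genes (0.0588%), and 2440 genes had an unadjusted p under 0.05. The 11 genes were Tmprss13, Hs3st6, Il25, Slc12a3, Rnf207, Grk1, Cilp2, Dhrs13os, Scarf2, Olfr1393 and Cd300c2. Every one of them was higher with celastrol than with vehicle at 6 h and at 1 day and lower at 4 days. The median celastrol minus vehicle difference of the 11 genes was 0.17 (log2) at 6 h, 0.25 at 1 day and -0.21 at 4 days, against 0.00723, 0.00856 and -0.000534 over all genes. The order higher, higher, lower was also held by 22.97% of all genes and by 52.8% of the 2440 genes with an unadjusted p under 0.05. The adjusted p of the F test ran from 0.0231 to 0.0480 inside the threshold, and the nearest gene outside, Tex22, had 0.0505.

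Single arrays moved that count. It was 0 without celastrol 1 day replicate 4, 0 without celastrol 4 days replicate 1, 0 without celastrol 4 days replicate 2 and 118, with all 11 genes among them, without celastrol 4 days replicate 4. It was 5 without vehicle 6 h replicate 1, 4 without vehicle 1 day replicate 4, 6 without vehicle 4 days replicate 2 and 3 without vehicle 4 days replicate 3. It was 24 without vehicle 6 h replicate 4, 20 without celastrol 6 h replicate 3, 19 without celastrol 1 day replicate 3 and 19 without celastrol 4 days replicate 3. With a robust variance trend 0 genes passed, with adjusted p of 0.0541 to 0.0982 for the 11, 0 passed once genes under the median signal were left out, and with the replicate number as a block 6 did. The direction of the 11 interactions was the same in each of these fits that held the gene. The genes were chosen for their interaction on these same arrays, so a kept direction is no independent support. The robust variance trend changes only the estimate of spread and cannot alter a direction.

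**Figure D1:**
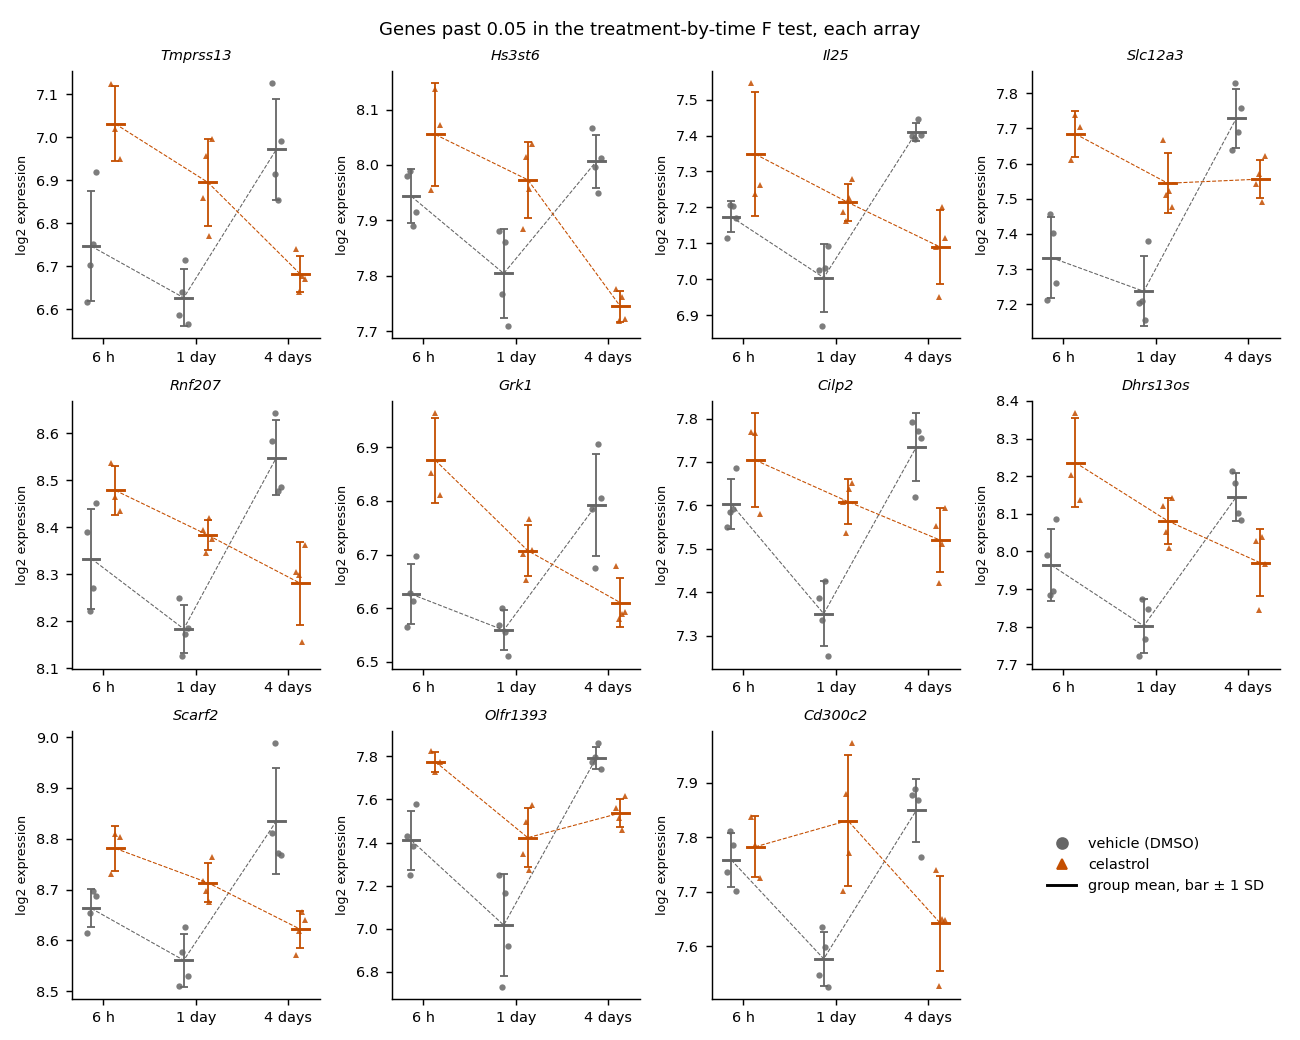
Log2 expression (vertical axis) of the 11 genes that passed the F test, by time (horizontal axis), with 1 point per array, vehicle in grey circles and celastrol in orange triangles, group means as bars and 1 SD as error bars. In every panel the 4 vehicle arrays at 4 days lie above the 4 vehicle arrays at 1 day, as they do in 13.2% of all genes, and the celastrol mean is above the vehicle mean at 6 h and 1 day and below it at 4 days.

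A protease of the cell surface, an enzyme that modifies heparan sulfate and a protein of the extracellular matrix made up 3 of the 11 genes. Tmprss13 encodes a membrane-anchored serine protease. Vehicle arrays of Tmprss13 read 6.62, 6.7, 6.75 and 6.92 at 6 h, 6.59, 6.64, 6.71 and 6.57 at 1 day, and 7.13, 6.92, 6.85 and 6.99 at 4 days. Celastrol arrays of Tmprss13 read 7.12, 7.02 and 6.95, 6.86, 6.96, 6.77 and 7.0, and 6.74, 6.64, 6.68 and 6.67 at the same times. At 6 h and at 1 day all celastrol arrays were above all vehicle arrays, and at 4 days all were below. Over all genes they were all above in 5.97% at 6 h and 6.44% at 1 day, and all below in 1.63% at 4 days. The 11 genes were chosen on these arrays, so nothing is read from such separation in any of them. The celastrol difference was 0.28 ± 0.071 (SE) at 6 h, 0.27 ± 0.066 at 1 day and -0.29 ± 0.066 at 4 days (limma, adjusted p of the F test 0.0231). The vehicle groups moved up by 0.34 from 1 day to 4 days, and the celastrol groups moved by -0.21.

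Hs3st6 encodes a heparan sulfate sulfotransferase, which modifies the sugar chains of cell-surface proteoglycans. Vehicle arrays of Hs3st6 read 7.98, 7.99, 7.89 and 7.92 at 6 h, 7.88, 7.77, 7.86 and 7.71 at 1 day, and 8.07, 8.0, 7.95 and 8.01 at 4 days. Celastrol arrays of Hs3st6 read 7.95, 8.14 and 8.07, 7.88, 8.01, 7.96 and 8.04, and 7.78, 7.72, 7.76 and 7.72 at the same times. The groups overlapped at 6 h, while the celastrol arrays were all higher at 1 day and all lower at 4 days. The difference went from 0.17 ± 0.049 at 1 day to -0.26 ± 0.049 at 4 days (adjusted p of the F test 0.0231). This was the 1 gene of the 11 whose celastrol groups also differed between times on their own (adjusted p = 0.0216 for celastrol, 0.0308 for vehicle): they moved by -0.23 from 1 day to 4 days while vehicle moved by 0.20. Cilp2, a cartilage intermediate layer protein of the extracellular matrix, had differences of 0.10, 0.26 and -0.21 at the successive times (adjusted p = 0.0347), with vehicle moving by 0.38 and celastrol by -0.09 between 1 day and 4 days.

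Another 3 genes encode immune signals and receptors. Il25 encodes a cytokine of the interleukin-17 family that drives type 2 immune responses. Vehicle arrays of Il25 read 7.11, 7.21, 7.2 and 7.17 at 6 h, 7.03, 6.87, 7.03 and 7.09 at 1 day, and 7.4, 7.39, 7.45 and 7.4 at 4 days. Celastrol arrays of Il25 read 7.55, 7.24 and 7.26, 7.19, 7.16, 7.23 and 7.28, and 7.09, 6.95, 7.2 and 7.12 at the same times. The celastrol arrays were all above the vehicle arrays at 6 h and at 1 day and all below them at 4 days, and vehicle at 4 days was above every other group but for overlap with celastrol at 6 h. The difference went from 0.21 ± 0.063 at 1 day to -0.32 ± 0.063 at 4 days (adjusted p = 0.0231).

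Cd300c2 encodes an immunoglobulin-like receptor of myeloid cells and belongs to the microglia and macrophage list. Vehicle arrays of Cd300c2 read 7.74, 7.81, 7.79 and 7.7 at 6 h, 7.55, 7.64, 7.6 and 7.53 at 1 day, and 7.88, 7.89, 7.87 and 7.76 at 4 days. Celastrol arrays of Cd300c2 read 7.84, 7.79 and 7.72, 7.7, 7.88, 7.77 and 7.97, and 7.74, 7.53, 7.65 and 7.65 at the same times. At 6 h the groups overlapped, with a difference of 0.02 ± 0.060, so in this gene the separation lay at 1 day (0.25 ± 0.056) and 4 days (-0.21 ± 0.056, adjusted p of the F test 0.0480). The other 15 measured members of that list did not pass, and the list's median difference was -0.017, 0.020 and -0.042 at the successive times. Scarf2, a scavenger receptor family member, had differences of 0.12, 0.15 and -0.21 (adjusted p = 0.0406), with all celastrol arrays above vehicle at 6 h and 1 day and all below at 4 days.

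Transport and sensory proteins made up a further 3. Slc12a3 encodes the thiazide-sensitive sodium chloride cotransporter, best known in the kidney. Vehicle arrays of Slc12a3 read 7.21, 7.46, 7.4 and 7.26 at 6 h, 7.2, 7.21, 7.15 and 7.38 at 1 day, and 7.64, 7.83, 7.69 and 7.76 at 4 days. Celastrol arrays of Slc12a3 read 7.61, 7.74 and 7.7, 7.67, 7.51, 7.52 and 7.48, and 7.54, 7.57, 7.49 and 7.62 at the same times. The vehicle arrays at 4 days stood above all earlier vehicle arrays, while the celastrol arrays at 1 day and 4 days overlapped. The differences were 0.35 ± 0.067, 0.31 ± 0.062 and -0.17 ± 0.062 (adjusted p = 0.0231). Between 1 day and 4 days vehicle moved by 0.49 and celastrol by 0.01.

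Olfr1393 encodes an odorant receptor, 1 of a large family of similar sequences, so its probe set may also read relatives. Vehicle arrays of Olfr1393 read 7.43, 7.25, 7.38 and 7.58 at 6 h, 7.25, 6.73, 7.17 and 6.92 at 1 day, and 7.77, 7.8, 7.86 and 7.74 at 4 days. Celastrol arrays of Olfr1393 read 7.82, 7.73 and 7.77, 7.35, 7.5, 7.27 and 7.58, and 7.56, 7.51, 7.46 and 7.61 at the same times. Both treatments had their lowest values at 1 day, and vehicle then moved further up. The vehicle movement from 1 day to 4 days was 0.78, a 1.71-fold rise in vehicle alone (adjusted p of the vehicle F test 0.000184), against 0.11 in celastrol. The differences were 0.36 ± 0.095, 0.41 ± 0.088 and -0.26 ± 0.088 (adjusted p of the interaction F test 0.0480). Grk1, the rhodopsin kinase of photoreceptors, had differences of 0.25, 0.15 and -0.18 (adjusted p = 0.0292), and its arrays overlapped at 4 days.

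The remaining genes were Rnf207, a RING finger protein studied in the heart, and Dhrs13os, an RNA transcribed opposite Dhrs13. Rnf207 had differences of 0.15, 0.20 and -0.27 (adjusted p = 0.0231). Dhrs13os had differences of 0.27, 0.28 and -0.18 (adjusted p = 0.0384). Whether the probes of Dhrs13os separate it from RNA of the opposite strand is not stated in the sources used here.

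Promoters from RefSeq (mouse build GRCm38.p6, 250 bases before to 50 bases after the start) were held for 7 of the 11 genes. Shown are 3 of them, the pair with the largest 6 h differences and Scarf2. Shared regulation of these genes was not tested. Capitals mark the only match among 5 motifs searched on both strands, a STAT motif TTCNNNGAA in Olfr1393 that starts 216 bases before the start. The promoters lie at chr8:94328958-94329257 (plus strand), chr11:49279900-49280199 (plus strand) and chr16:17797032-17797331 (plus strand).
Slc12a3: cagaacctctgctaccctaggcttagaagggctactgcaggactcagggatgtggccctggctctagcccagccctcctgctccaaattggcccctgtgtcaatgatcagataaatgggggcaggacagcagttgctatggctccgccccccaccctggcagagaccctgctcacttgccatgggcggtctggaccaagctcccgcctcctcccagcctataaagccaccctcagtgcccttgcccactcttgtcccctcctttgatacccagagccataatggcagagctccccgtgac
Olfr1393: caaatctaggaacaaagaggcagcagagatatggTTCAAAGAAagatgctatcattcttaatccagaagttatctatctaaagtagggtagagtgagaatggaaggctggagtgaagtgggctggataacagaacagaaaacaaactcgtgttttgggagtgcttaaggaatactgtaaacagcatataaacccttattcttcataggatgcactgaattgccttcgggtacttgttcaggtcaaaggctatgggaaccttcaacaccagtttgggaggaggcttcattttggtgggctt
Scarf2: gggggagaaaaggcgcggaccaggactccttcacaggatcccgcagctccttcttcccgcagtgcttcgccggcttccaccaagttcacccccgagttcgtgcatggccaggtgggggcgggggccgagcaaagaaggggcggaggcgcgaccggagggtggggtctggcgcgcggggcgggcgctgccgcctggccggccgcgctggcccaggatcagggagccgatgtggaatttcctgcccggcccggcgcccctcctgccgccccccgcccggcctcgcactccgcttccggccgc

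The other motifs were GGGNNTTCC (NF-kB), ACANNNTGT (glucocorticoid receptor core), TGACGTCA (cAMP response) and CACGTG (E-box), with 0 matches in the 7 promoters, so no match overlapped another. Of 32851 mouse promoters of the same length, 8.30% held the STAT motif, 5.82% the NF-kB motif, 6.85% the glucocorticoid receptor core, 1.79% the cAMP response motif and 7.15% the E-box. The GC content was 60.3% for Slc12a3, 42.0% for Olfr1393 and 74.3% for Scarf2, against a median of 52.7% over all promoters. A match is a description of letters and no evidence of binding.

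The movement of the 2 treatments was then set side by side for the 11 genes. From 1 day to 4 days vehicle moved up in all 11, by 0.20 to 0.78 (median 0.34), and celastrol moved by -0.23 to 0.11 (median -0.10). The vehicle movement was equal in size to between 47.0% and 117% of the 4 day minus 1 day interaction (median 75.5%). From 6 h to 4 days the balance was different: vehicle moved by 0.063 to 0.40 and celastrol by -0.35 to -0.13, and the vehicle share of the interaction was 16.9% to 75.5% (median 41.6%). From 6 h to 1 day both treatments mostly moved down together, by a median of -0.15 in vehicle and -0.13 in celastrol.

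Tested by themselves, the vehicle groups differed between times in 1651 genes (8.83%; vehicle F test) and the celastrol groups in 46 genes (0.246%; celastrol F test). Unadjusted p under 0.05 was reached by 5321 and 3068 genes. Of the 11 genes, the adjusted p ran from 0.000184 to 0.0308 in the vehicle test and from 0.0216 to 0.387 in the celastrol test. The vehicle test and the interaction share the vehicle arrays, so a low p in both is no independent support. All 4 vehicle arrays at 4 days were above all 4 at 1 day in 11 of 11 genes, and the celastrol arrays at 4 days were below those at 1 day in 3 of 11. Over all 18702 genes these shares were 13.2% and 2.95%, and since the 11 genes were chosen on the same arrays, nothing is read from their counts. The vehicle count was 901, 1019 and 829 without vehicle 1 day replicates 2, 3 and 4, and 865, 664 and 747 without vehicle 4 days replicates 1, 2 and 3. It was 2 with each array's SD over genes as a covariate, 2 with choroid plexus markers and 26 with fibroblast markers, and 2491 with array weights.

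**Figure D2:**
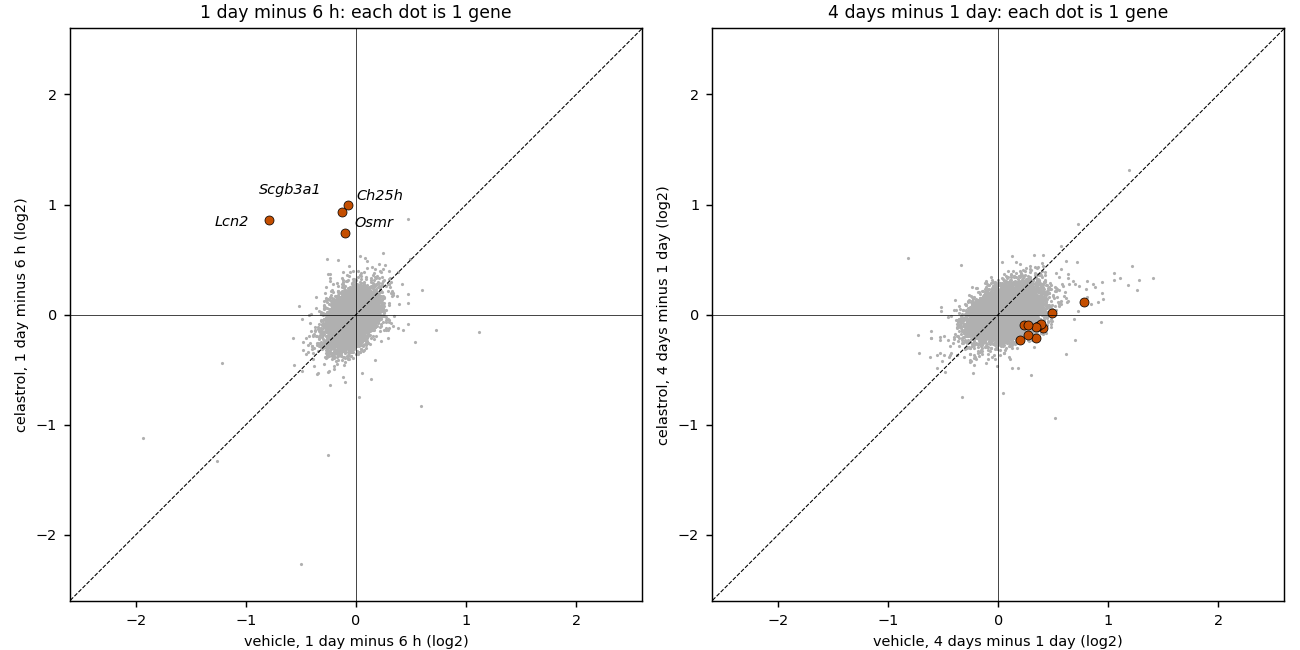
Movement between successive times in vehicle (horizontal axis, log2) and in celastrol (vertical axis, log2), with 1 grey dot per gene. On the left (1 day minus 6 h) Lcn2, Ch25h, Scgb3a1 and Osmr are marked, and all 4 lie above the dashed line of equal movement; on the right (4 days minus 1 day) the 11 genes that passed the F test are marked and all lie to the right of 0 and below the dashed line.

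The genes of smallest p in the time tests within a treatment lay, apart from Olfr1393, outside the 11. In vehicle the 5 of smallest p were Mindy2, a deubiquitinase, Hacd2, an enzyme of long-chain fatty acid synthesis, Chordc1, a co-chaperone of Hsp90, Ugcg, the glucosylceramide synthase, and Olfr1393. Chordc1 fell by 0.49 from 1 day to 4 days in vehicle and by 0.37 in celastrol (adjusted p = 0.000137 and 0.0216), and its interaction had an adjusted p of 0.385. Mindy2 fell by 0.53 in vehicle (adjusted p = 0.000137), while its celastrol movement was -0.23 (adjusted p of the celastrol F test 0.114) and its interaction missed the threshold (adjusted p = 0.190). In celastrol the 5 of smallest p were Olfr624 and Olfr191, which are odorant receptor genes, Pla2g4e, a phospholipase, Arf1, a small GTPase of Golgi traffic, and Chordc1. Olfr624 moved by 0.56 from 6 h to 1 day and by -0.53 to 4 days in celastrol (adjusted p = 0.0216), and by 0.24 and -0.23 in vehicle (adjusted p = 0.125). Its interaction had an adjusted p of 0.374, so the pass in celastrol and the miss in vehicle were not shown to differ.

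The celastrol count was unstable to single arrays. It was 0 without celastrol 1 day replicate 4, 19, 18 and 17 without celastrol 1 day replicates 1, 2 and 3, and 18, 21 and 25 without celastrol 4 days replicates 1, 2 and 3. It was 20 without celastrol 6 h replicate 1 and 93 without celastrol 6 h replicate 3. Through the shared estimate of spread it was also 29 without vehicle 1 day replicate 2, 29 without vehicle 1 day replicate 4, 30 without vehicle 4 days replicate 3 and 200 without vehicle 6 h replicate 3.

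The 11 genes lay in the lower part of the signal range, and the medians of the lowest tercile shared their order of signs. By mean log2 signal over all arrays, 6 of the 11 were in the lowest tercile of genes (6234 genes), 5 in the middle tercile and 0 in the highest tercile. In the lowest tercile the median celastrol minus vehicle difference was 0.082 at 6 h, 0.069 at 1 day and -0.032 at 4 days. In the highest tercile it was -0.029, -0.022 and 0.014, the opposite sign at each time. In the middle tercile, which held 5 of the 11, it was -0.0099, 0.0027 and -0.00050. From 1 day to 4 days the lowest tercile moved by a median of 0.12 in vehicle and 0.019 in celastrol. The celastrol median of the 11 genes over that interval was -0.10, so that movement was not shared. Among genes with an unadjusted F p under 0.05, the change from 1 day to 4 days was downward in 1003 and upward in 88 of the lowest tercile, and downward in 79 and upward in 345 of the highest tercile. Array signal depends on the probe as well as on the RNA, so these terciles order probe sets by signal and do not rank transcripts by abundance.

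**Figure D3:**
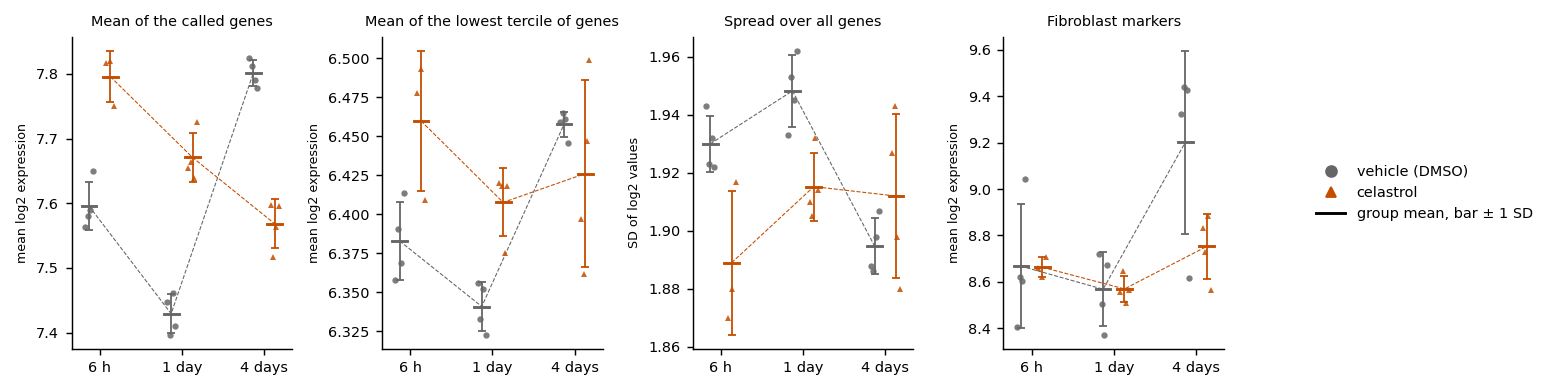
Measures of each array by time (horizontal axis), vehicle in grey circles and celastrol in orange triangles, with group means and 1 SD: mean log2 expression of the 11 genes, mean log2 expression of the lowest tercile of genes, SD of log2 values over all genes, and mean log2 expression of 17 fibroblast markers. The mean of the 11 genes lies between 7.78 and 7.82 on the vehicle arrays at 4 days and between 7.40 and 7.46 at 1 day, and the SD over genes is lower on those 4 day arrays than on the 1 day arrays.

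The spread of values over all genes, a property of an array as a whole, moved with these groups. Its SD was 1.93 to 1.96 on the vehicle arrays at 1 day and 1.89 to 1.91 at 4 days, without overlap. On celastrol arrays it was 1.87 to 1.92 at 6 h, 1.91 to 1.93 at 1 day and 1.88 to 1.94 at 4 days. With each array's SD as a covariate 0 genes passed the F test and 1016 had an unadjusted p under 0.05. The largest pairwise interaction of each of the 11 genes kept its sign, and these lay between -0.54 and -0.33, against -0.66 and -0.37 without the covariate, with adjusted p of 0.535 to 0.778. After a further quantile normalization, which gives all arrays the same distribution, 0 genes passed, the 11 interactions lay between -0.55 and -0.30, and their adjusted p was 0.114 to 0.238. The median 4 day minus 1 day interaction of the lowest tercile was then -0.00118, against -0.0974 before. At an unadjusted p under 0.05 that interaction was upward in 810 genes and downward in 1719 as deposited, and upward in 891 and downward in 959 after quantile normalization. The part of array spread in the result was otherwise not tested.

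Markers of other tissue moved with the vehicle groups as well. The mean of 17 meningeal and perivascular fibroblast markers was 9.32, 9.44, 9.43 and 8.62 on the 4 vehicle arrays at 4 days, between 8.37 and 9.04 on the earlier vehicle arrays and between 8.51 and 8.89 on all celastrol arrays. The list's median vehicle movement from 1 day to 4 days was 0.72 and its median interaction -0.56, with 15 of 17 members downward, 6 at an unadjusted p under 0.05 and 0 past the threshold. Among its members Igfbp2, an insulin-like growth factor binding protein, had differences of 0.16, 0.21 and -0.48 (adjusted p = 0.0802), and Slc22a6, an organic anion transporter, -0.06, 0.12 and -0.53 (adjusted p = 0.224). Kcnj13, a potassium channel of the choroid plexus, read 8.94, 9.38, 9.18 and 7.62 on the vehicle arrays at 4 days, and 8.48 on vehicle 6 h replicate 4. The other choroid plexus markers did not all follow it. Of 15 measured, 10 moved up and 5 down in vehicle from 1 day to 4 days (median 0.16). Their 4 day minus 1 day interaction was downward in 9 and upward in 6 (median -0.050). Replicate 4 of the vehicle arrays at 4 days thus lacked the high values of Kcnj13 and of the fibroblast mean. Its mean over the 11 genes was 7.78, beside 7.82, 7.81 and 7.79 on replicates 1, 2 and 3. The 11 genes were chosen on these same arrays, so nothing is read from this likeness. With the fibroblast mean as a covariate, an alternative chosen after the values were seen, 0 genes passed, and the 11 interactions lay between -0.60 and -0.34 with adjusted p of 0.143 to 0.230. With the mean of choroid plexus markers as a covariate 0 genes passed, and the interactions lay between -0.58 and -0.34 with adjusted p of 0.153 to 0.164. Prl, a pituitary hormone transcript, read above 9 on 4 vehicle arrays and at most 8.6 on celastrol arrays. Without those 4 arrays 13 genes passed, 6 of them among the 11.

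The change between each pair of times was also tested alone. From 1 day to 4 days 17 genes (0.0909%) passed and all 17 went downward, meaning that celastrol fell relative to vehicle. From 6 h to 4 days 3 genes (0.016%) passed, Tmprss13, Slc12a3 and Grk1, again downward. From 6 h to 1 day 0 genes (0.0%) passed in limma, the smallest adjusted p was 0.368, and 685 genes had an unadjusted p under 0.05. The 95% confidence interval of such a change reached 0.192 to 0.200 on the log2 scale to either side for the median gene, which is the unadjusted interval of a single gene.

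The 17 genes held all of the 11 but Grk1 and, besides, Tex22, Galnt15, Cd8a, Olfr898, C2cd4c, 5730522E02Rik and Lif. Cd8a, the T cell coreceptor, had differences of 0.14, 0.25 and -0.24, and a 4 day minus 1 day interaction of -0.49 ± 0.092 (adjusted p = 0.0297). Galnt15, which starts mucin-type sugar chains on proteins, had differences of 0.00, 0.37 and -0.12 and an interaction of -0.48 ± 0.090 (adjusted p = 0.0297). Lif, a cytokine of the interleukin-6 family, had an interaction of -0.47 ± 0.093 (adjusted p = 0.0451) and was named after its values were seen. Pik3c2a, a lipid kinase of endocytosis, was the 1 gene with the opposite order among the 20 of smallest p: it was lower with celastrol by -0.14 at 6 h and -0.12 at 1 day and higher by 0.14 at 4 days (adjusted p of the F test 0.0731), and its vehicle groups moved by -0.22 from 1 day to 4 days.

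Single arrays moved these counts too. For 1 day to 4 days the count was 175 without celastrol 4 days replicate 4, 55 without celastrol 4 days replicate 3, 38 without vehicle 4 days replicate 4 and 36 without vehicle 6 h replicate 3. It was 7 and 8 without celastrol 4 days replicates 1 and 2, 9, 9 and 8 without celastrol 1 day replicates 1, 2 and 4, 10 without vehicle 4 days replicate 2, 10 without vehicle 4 days replicate 3, and 11 each without vehicle 1 day replicates 3 and 4. For 6 h to 4 days it was 128 and 32 without celastrol 4 days replicates 4 and 3, 62 without celastrol 6 h replicate 3, 15 without vehicle 6 h replicate 4, and 5 each without vehicle 6 h replicate 2, vehicle 1 day replicate 2 and vehicle 4 days replicate 1. It was 1 without vehicle 4 days replicates 2 or 4, and 0 without vehicle 6 h replicates 1 or 3, vehicle 1 day replicates 1 or 3, vehicle 4 days replicate 3, celastrol 6 h replicates 1 or 2, celastrol 1 day replicates 1, 3 or 4, or celastrol 4 days replicates 1 or 2. For 6 h to 1 day it was 1 without celastrol 1 day replicate 1. The 17 became 0 with quantile normalization, with the array SD, choroid plexus or fibroblast covariate or without the 4 arrays of high Prl, and 96 with array weights.

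**Figure D4:**
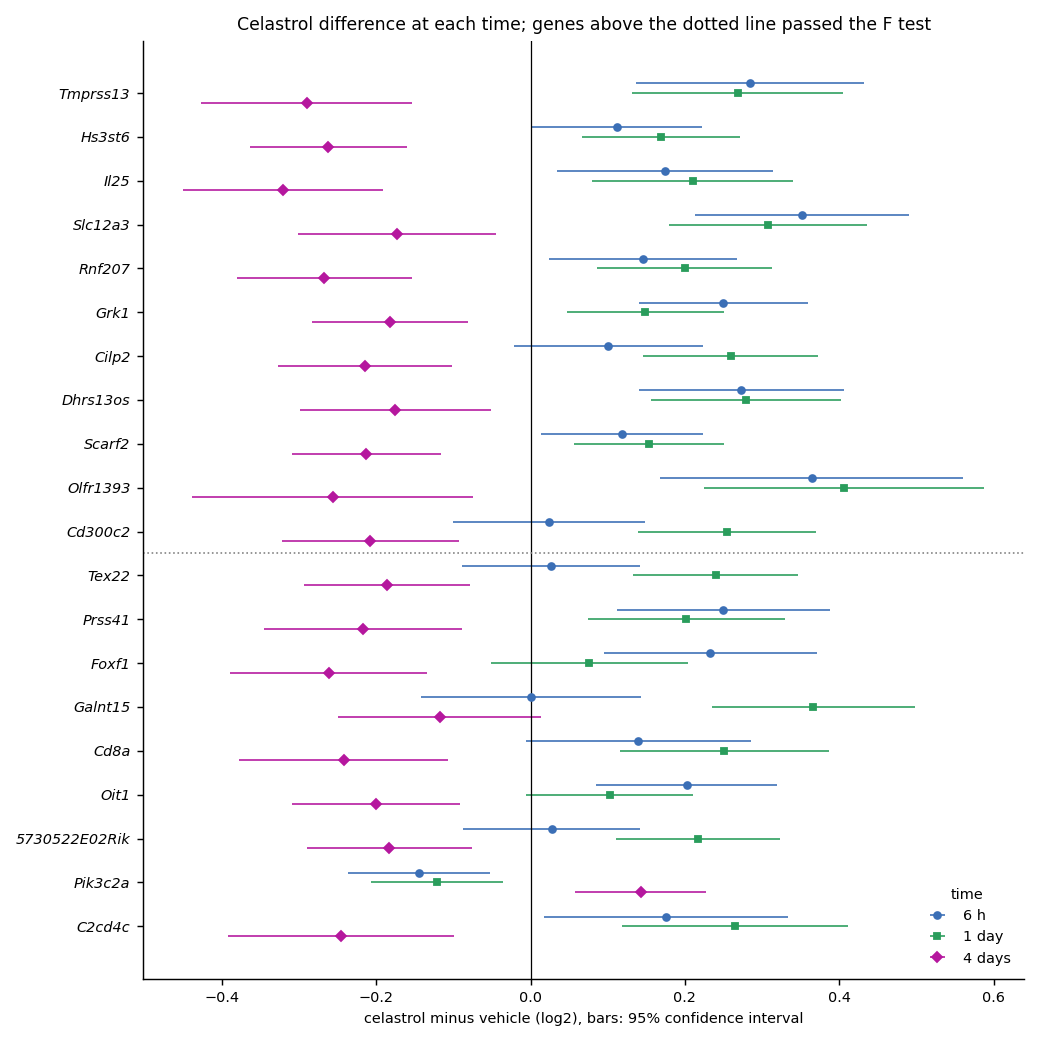
Celastrol minus vehicle (horizontal axis, log2, with 95% confidence intervals) at 6 h, 1 day and 4 days for the 20 genes of smallest interaction F p, in that order from the top. The 11 genes above the dotted line passed at 0.05 and have their 4 day difference on the left of 0 and the others on the right; Pik3c2a runs the other way.

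Several other named genes had a celastrol difference above 0.5 at 1 day but did not pass the F test, so a change of their difference between times was not shown. Scgb3a1 encodes a secretoglobin, a secreted protein best known from airways. Vehicle arrays of Scgb3a1 read 7.76, 8.1, 8.17 and 7.89 at 6 h, 8.0, 7.72, 7.82 and 7.87 at 1 day, and 7.9, 7.96, 7.86 and 7.88 at 4 days. Celastrol arrays of Scgb3a1 read 7.76, 8.24 and 7.89, 8.31, 9.33, 8.75 and 9.2, and 7.94, 8.48, 8.21 and 8.1 at the same times. All 4 celastrol arrays at 1 day were above every vehicle array, and the groups overlapped at 6 h and 4 days. The differences were -0.01 ± 0.170, 1.04 ± 0.158 and 0.28 ± 0.158, the adjusted p of the interaction F test was 0.0920, and the celastrol F test was passed (adjusted p = 0.0283) while the vehicle F test had an adjusted p of 0.817.

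Ch25h encodes cholesterol 25-hydroxylase, an interferon-inducible enzyme that makes 25-hydroxycholesterol. Vehicle arrays of Ch25h read 6.95, 6.62, 6.63 and 6.89 at 6 h, 6.83, 6.65, 6.79 and 6.52 at 1 day, and 6.75, 6.95, 6.99 and 6.59 at 4 days. Celastrol arrays of Ch25h read 6.63, 6.55 and 6.29, 7.21, 7.73, 7.13 and 7.88, and 7.21, 7.11, 7.02 and 6.69 at the same times. The vehicle groups overlapped at all times, and the celastrol arrays at 1 day stood above every vehicle array. The differences were -0.28 ± 0.156, 0.79 ± 0.144 and 0.18 ± 0.144 (adjusted p of the interaction F test 0.0911), with an adjusted p of 0.0216 in the celastrol F test and 0.781 in the vehicle F test.

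Lcn2 encodes lipocalin 2, an iron-binding acute-phase protein. Vehicle arrays of Lcn2 read 6.86, 7.35, 7.23 and 7.62 at 6 h, 6.46, 6.47, 6.5 and 6.47 at 1 day, and 7.01, 7.12, 7.35 and 6.89 at 4 days. Celastrol arrays of Lcn2 read 7.14, 7.14 and 6.66, 7.45, 7.77, 7.34 and 8.78, and 7.18, 7.82, 7.76 and 7.15 at the same times. All vehicle arrays at 1 day were below those at the other times, with an SD of 0.018 (n = 4), and all celastrol arrays at 1 day were above them. From 6 h to 1 day vehicle moved by -0.79 and celastrol by 0.86, which left a 1 day difference of 1.36 ± 0.226. The interaction from 6 h to 1 day was 1.65 ± 0.333 (adjusted p = 0.368), and the F test had an adjusted p of 0.0911.

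Osmr, the oncostatin M receptor subunit, and Lrg1, an acute-phase glycoprotein, were also largest in their difference at 1 day and did not pass. Osmr had differences of -0.33, 0.51 and 0.20 (adjusted p = 0.190), and its lowest 1 day celastrol array of 8.25 equalled the highest vehicle array of that day at 2 decimals. Lrg1 had differences of 0.02, 0.63 and 0.08 (adjusted p = 0.136). For Lrg1 vehicle moved by -0.24 from 6 h to 1 day and by 0.39 to 4 days, and celastrol by 0.37 and -0.16.

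**Figure D5:**
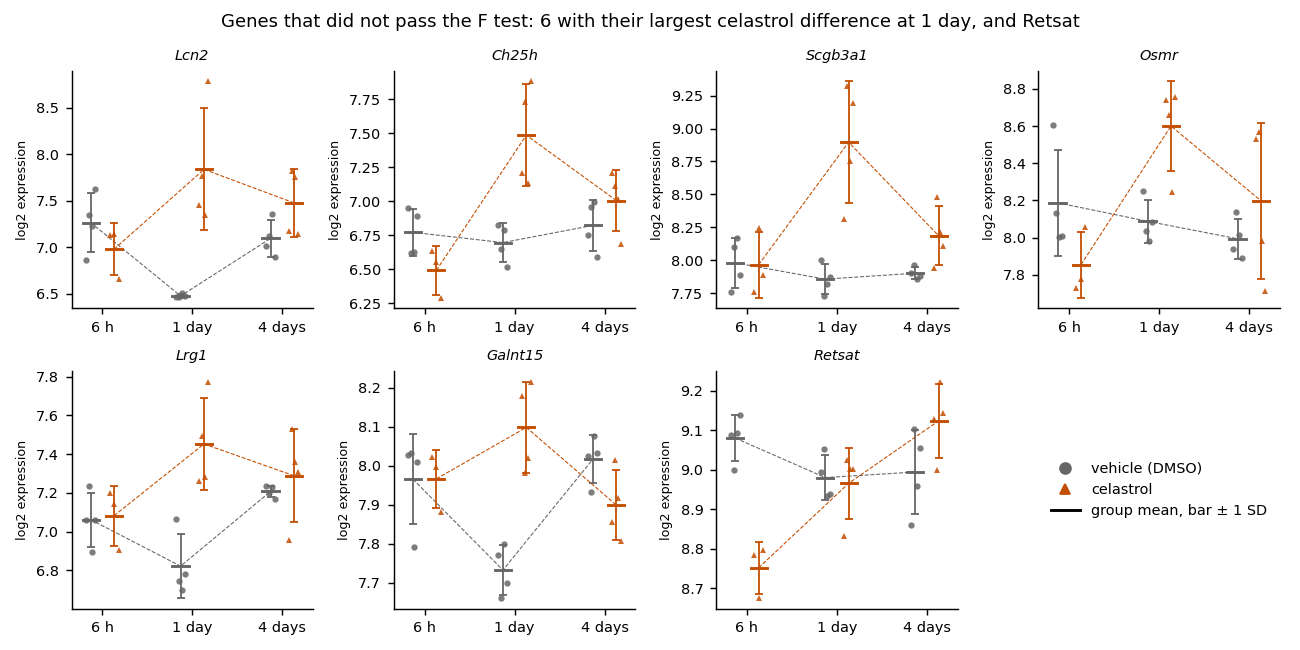
Log2 expression (vertical axis) by time (horizontal axis) of Lcn2, Ch25h, Scgb3a1, Osmr, Lrg1, Galnt15 and Retsat, with 1 point per array, vehicle in grey circles and celastrol in orange triangles, group means as bars and 1 SD as error bars. The first 6 have their largest celastrol minus vehicle difference at 1 day, and in Retsat the 3 celastrol arrays at 6 h lie below all vehicle arrays.

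Retsat, the retinol saturase, had its largest difference at 6 h. Vehicle arrays of Retsat read 9.09, 9.0, 9.09 and 9.14 at 6 h, 9.0, 9.05, 8.93 and 8.94 at 1 day, and 8.86, 9.1, 8.96 and 9.05 at 4 days. Celastrol arrays of Retsat read 8.78, 8.68 and 8.8, 8.83, 9.03, 9.0 and 9.0, and 9.13, 9.0, 9.22 and 9.14 at the same times. The 3 celastrol arrays at 6 h were below every vehicle array, and the groups overlapped at 1 day and 4 days. The differences were -0.33 ± 0.063, -0.01 ± 0.059 and 0.13 ± 0.059 (adjusted p of the interaction F test 0.0731). Its celastrol groups differed between times (adjusted p = 0.0283), and the vehicle F test had an adjusted p of 0.374. Npas4, an activity-dependent transcription factor of neurons, alternated, with differences of 0.28, -0.19 and 0.18 (adjusted p = 0.0920).

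Pathway lists were described by their members' differences. They were chosen with earlier results of these data known, so a high share of members is no independent support. Over 31 lists, 1 member passed the F test, the Cd300c2 named above, so each list is given by its median and by its members with an unadjusted p under 0.05, which 13.0% of all genes reached. Of 24 glucocorticoid response genes 11 reached it (45.8%), with median differences of -0.085 at 6 h, 0.15 at 1 day and 0.0092 at 4 days, and 21 of 24 higher from 6 h to 1 day in the interaction (median 0.29, against 0.0029 over all genes). In this list vehicle moved by a median of -0.10 and celastrol by 0.14 from 6 h to 1 day. Without celastrol 1 day replicate 4 the median 1 day difference was 0.095, and without celastrol 6 h replicate 2 the median 6 h difference was -0.145. The members include Lcn2 and Galnt15, and also Sgk1, a kinase of ion transport, with differences of -0.36, 0.20 and 0.03 (adjusted p = 0.207), Fkbp5, a chaperone of steroid receptors, with -0.21, 0.14 and -0.05 (adjusted p = 0.366), and Plin4, a lipid droplet protein, with -0.19, 0.43 and -0.08 (adjusted p = 0.113).

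Of 25 NF-kB and inflammatory targets 8 reached an unadjusted p under 0.05 (32.0%), with median differences of 0.12, 0.16 and 0.0043. From 1 day to 4 days the interaction was downward in 21 of 25 (median -0.18), the vehicle groups moved up in 25 of 25 (median 0.15) and the celastrol groups moved by a median of -0.030. Over all 18702 genes that interaction was downward in 9778 (median -0.0067), and vehicle moved up in 11360 (median 0.033). In the lowest tercile of genes by signal these medians were -0.097 and 0.12. The group means of the NF-kB list, 7.30 to 7.48, lay within the signal range of that tercile, which does not place each member there. Nfkbia, the inhibitor that NF-kB induces, had differences of -0.11, 0.33 and 0.13 (adjusted p = 0.230), and Il1b, the inflammatory cytokine, 0.33, 0.32 and 0.00 (adjusted p = 0.392). Over the arrays Nfkbia read 9.19 to 9.87 and Il1b 6.04 to 6.96. Of 21 acute-phase and STAT3 targets 7 reached it (33.3%), with medians of 0.020, 0.11 and -0.023. In both lists most members had their 4 day minus 1 day interaction in the downward direction, 19 of 21 in the acute-phase list.

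Of 15 blood leukocyte markers 6 reached it (40.0%), with median differences of 0.16, 0.072 and 0.0088, and a 1 day median of 0.11 without celastrol 1 day replicate 1. The list's group means lay between 6.34 and 6.53, in the signal range of the lowest tercile, whose median differences were 0.082, 0.069 and -0.032. A list mean does not place each member in that range. Cd3e, a T cell receptor subunit, had differences of 0.23, 0.14 and -0.23 (adjusted p = 0.0911). Its vehicle arrays at 4 days were all above those at 1 day, as in 13.2% of all genes.

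The 6 h values of lists of core cell functions rested largely on 1 vehicle array. Over all arrays celastrol was lower than vehicle at 6 h in 30 of 31 proteasome genes (median -0.099), 34 of 35 respiratory chain genes (median -0.084) and 21 of 22 ribosomal protein genes (median -0.095). At 1 day the medians were 0.011, 0.0092 and 0.038. Their interaction from 6 h to 1 day had medians of 0.13, 0.094 and 0.15, with 29 of 31, 31 of 35 and 20 of 22 members upward, but 0 members passed the F test and 1, 2 and 2 had an unadjusted p under 0.05, a smaller share than over all genes. Vehicle moved by medians of -0.074, -0.056 and -0.073 over that interval and celastrol by 0.059, 0.027 and 0.070.

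Vehicle 6 h replicate 3 had the highest mean of each of these lists in its group. The proteasome mean was 11.09 on it and 10.74 to 10.83 on the other 3 arrays, the respiratory chain mean 11.86 against 11.55 to 11.59, and the ribosomal protein mean 11.75 against 11.39 to 11.44. Without that array, an alternative chosen after the values were seen, celastrol was lower at 6 h in 25 of 31, 23 of 35 and 13 of 22 members, with medians of -0.042, -0.011 and -0.0049. The interaction from 6 h to 1 day then had medians of 0.034, 0.029 and 0.055, with 27, 25 and 17 members upward, and vehicle moved by 0.00976, 0.00475 and 0.00583 in the median, the sign opposite to that with the array.

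Leptin signalling and feeding genes were given by the same measure. Of 19 genes of leptin signalling and its brakes 2 had an unadjusted F p under 0.05 (10.5%), and of 23 feeding circuit genes 0 did, against 13.0% of all genes. Lepr, the leptin receptor gene mutated in these mice, had differences of -0.25, -0.06 and 0.14 (adjusted p = 0.301). Socs3, which leptin induces and which blocks its receptor, had 0.18, 0.17 and -0.06 (adjusted p = 0.491), and Ptpn1, the phosphatase that dampens it, -0.10, -0.11 and 0.01 (adjusted p = 0.710). Npy had -0.13, 0.13 and 0.17 (adjusted p = 0.572). Pomc, the precursor of appetite-suppressing melanocortins and of pituitary hormones, had -0.51, 0.27 and -0.67 with standard errors of 0.514, 0.476 and 0.476 (adjusted p = 0.711). Its vehicle arrays at 6 h read 8.06, 10.84, 8.32 and 10.43, high on the same 2 arrays on which Prl, the pituitary hormone prolactin, read 11.28 and 10.93 against 6.21 and 6.72 on the others. Without vehicle 6 h replicate 2 the Pomc difference at 6 h was -0.033. Without the 4 arrays with a Prl signal above 9 the differences were 0.71, 0.50 and -0.35, so the sign at 6 h turned. Both alternatives were chosen after the values were seen, and the part of pituitary RNA in the Pomc values was otherwise not tested.

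Stress response and metabolic lists had shares between 0.0% and 14.3%, against the 13.0% of all genes. An unadjusted F p under 0.05 was reached by 2 of 18 heat shock genes, 2 of 21 endoplasmic reticulum stress genes, 1 of 18 NRF2 antioxidant genes and 3 of 21 immediate early genes, and by 0 of 20 circadian clock genes and 0 of 22 cholesterol and fatty acid synthesis genes. Hspa1a, an inducible chaperone, had differences of -0.13, 0.00 and -0.15 (adjusted p = 0.641), Hmox1, the NRF2 target heme oxygenase, -0.12, 0.08 and 0.01 (adjusted p = 0.589), and Hspa5, the main chaperone of the endoplasmic reticulum, 0.00, 0.09 and 0.06 (adjusted p = 0.770). Per1, a clock gene, had -0.04, -0.01 and 0.04 (adjusted p = 0.899). None of these 4 genes passed the F test, with 3 to 4 arrays per group.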

How the data were processed

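Total RNA of mouse hypothalamus was measured on 23 Affymetrix arrays. Each deposited table holds log2 signals, 1 per probe set, which the authors computed by RMA according to their processing notes. Which arrays were normalized together is not stated in the sources used here, and no depth applies to arrays, whose number limits the precision. Of 23492 probe sets 20228 named 1 gene, 1399 several and 1865 none; for 811 genes with more than 1 probe set the one with the highest mean was taken, which left 18702 genes, unfiltered. A model of 6 group means was fitted with limma 3.58.1 (R 4.3.3; eBayes, 17 residual and 5.42 prior degrees of freedom), with Benjamini-Hochberg adjustment over all genes. Contrasts were the celastrol minus vehicle difference at each time, its change between times (F test and each pair), and the time effect within each treatment. The procedure was tested on simulated data with independent noise for each gene. These held no differences between arrays in spread over genes or in tissue, so the test does not bear on those.

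Members and lists were chosen with earlier results of these data known. Genes named are those past 0.05 in the interaction F test, filled to 20 by smallest p, up to 8 per direction of each pairwise change, the 5 of smallest p for time within each treatment, a fixed set of genes of leptin, feeding, inflammation and stress, and, for each of 31 lists, up to 3 members. Alternatives were a robust variance trend, array weights, filters on level, quantile normalization, median centring, a replicate block, array SD or tissue markers as covariates, every probe set, and leaving out arrays.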

Additional observations from a re-analysis of the deposited data

Results flagged for a closer look

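The celastrol minus vehicle difference changed between times, by a test of the change itself (limma, adjusted p under 0.05 in the F test or for a pair of times), in 18 of 18702 genes. The largest change of each, on the log2 scale, lay between 1 day and 4 days for Hs3st6 (-0.43), Il25 (-0.53), Rnf207 (-0.47), Cilp2 (-0.47), Dhrs13os (-0.45), Scarf2 (-0.37), Olfr1393 (-0.66), Cd300c2 (-0.46), Tex22 (-0.43), Galnt15 (-0.48), Cd8a (-0.49), 5730522E02Rik (-0.40), C2cd4c (-0.51), Olfr898 (-0.49) and Lif (-0.47). It lay between 6 h and 4 days for Tmprss13 (-0.57), Slc12a3 (-0.52) and Grk1 (-0.43). All 18 went the same way, toward lower celastrol values relative to vehicle at 4 days. The F test and each pair of times were adjusted separately. Each of these tests was passed by 0 genes after quantile normalization or with the array SD, choroid plexus or fibroblast covariate.

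One array stood apart from the other 3 of its group in 25 of 355 gene and group combinations tested, over 71 genes. Chance alone does this in about 1 in 20 groups. The measure is the gap to the nearest array divided by the group's range, judged by Dixon's 95% critical value. Among genes that passed the F test it was 0.867 for Grk1 on celastrol 4 days replicate 1, at 6.68 beside 6.59, and 0.832 for Cd300c2 on vehicle 4 days replicate 4, at 7.76 beside 7.87. Among genes near the threshold it was 0.88 for Prss41 on celastrol 4 days replicate 1, 0.901 for Galnt15 on vehicle 6 h replicate 3, 0.854 for Olfr898 on vehicle 4 days replicate 3 and 0.881 for Retsat on celastrol 1 day replicate 1.

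In leptin and feeding genes it was 0.879 for Lepr on celastrol 1 day replicate 3, 0.838 for Socs3 on vehicle 4 days replicate 4, 0.943 for Socs3 on celastrol 4 days replicate 3 and 0.896 for Pomc on celastrol 1 day replicate 2. For Cartpt, a satiety peptide precursor, it was 0.875 on vehicle 1 day replicate 4 and 0.944 on celastrol 1 day replicate 4. Socs1, an inhibitor of cytokine signalling, gave 0.867 on vehicle 1 day replicate 1. In stress and steroid response genes it was 0.927 for Hmox1 on celastrol 1 day replicate 2, 0.915 for Fkbp5 on vehicle 1 day replicate 1 and 0.855 for Sgk1 on vehicle 6 h replicate 2.

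In genes of large time effects it was 0.841 for Hacd2 on celastrol 4 days replicate 4, 0.888 for Chordc1 on vehicle 1 day replicate 3, 0.877 for Olfr624 on vehicle 1 day replicate 1 and 0.96 for Pla2g4e on celastrol 1 day replicate 2. Nfkb2, an NF-kB subunit, gave 0.939 on celastrol 1 day replicate 3. Col1a1, a fibroblast collagen, gave 0.858 on vehicle 1 day replicate 1 and 0.851 on celastrol 1 day replicate 2, at 9.37 beside 8.82. Tie1, an endothelial receptor, gave 0.953 on vehicle 6 h replicate 3 and 0.836 on vehicle 1 day replicate 2.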

How the results depend on the processing

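The 11 genes kept the direction of their interaction in each alternative that was read gene by gene and held the gene, but the count that passed did not hold. Since the genes were chosen on these same arrays, the kept direction is no independent support. Without the lowest tercile 5 of the 11 were held, and without the genes below the median level 1 was. The fits with every probe set or only 4 groups were read by count alone. The interaction F count was 0 with a robust variance trend, quantile normalization, or the array SD, choroid plexus or fibroblast covariate, 0 without the genes below the median level, 5 without the lowest tercile, and 6 with thalamus and striatum markers as a covariate. With the replicate block it was 6, 4 of them among the 11; same-numbered arrays correlated at -0.222 to 0.258 and 5 of 23 arrays were most like their own number, so the numbers were not taken as pairs. From 1 day to 4 days (17 genes) it was 96 with array weights, 2 when genes under the median level were left out, and 0 with quantile normalization, the SD, choroid plexus or fibroblast covariate, or without the arrays with Prl above 9. From 6 h to 4 days (3 genes) it was 14 without those arrays and 0 with the trend, weights, either filter, quantile normalization, the replicate block, any of the 5 covariates, every probe set, or only the 4 groups compared. The vehicle time count (1651) was 2491 with array weights, 852 when genes under the median level were left out, 734 with quantile normalization, 2 with the SD, 2 with the choroid plexus and 26 with the fibroblast covariate. The celastrol time count (46) was 96, 30 and 26 with weights, quantile normalization and centring, and 6 and 30 with the choroid plexus and fibroblast covariates. Leaving out single arrays gave 0 to 118 genes for the F test, 0 to 1 for 6 h to 1 day, 7 to 175 for 1 day to 4 days, 0 to 128 for 6 h to 4 days, 664 to 1932 for vehicle time and 0 to 200 for celastrol time. Causes were not tested beyond these fits, and filters leave fewer genes tested. The fibroblast covariate was chosen after seeing the data.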

Other observations

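Markers of endothelium, astrocytes, oligodendrocytes and neurons had 0 genes past the threshold for a changing celastrol difference. Of 14 endothelial markers 3 had an unadjusted F p under 0.05 (21.4%), which 13.0% of all genes reached. Tie1 had differences of 0.11, -0.18 and 0.03 (limma, adjusted p = 0.157). Aqp4, the astrocyte water channel, had differences of 0.08, -0.19 and 0.01 (adjusted p = 0.246), and 1 of 13 astrocyte markers reached an unadjusted p under 0.05. Of 18 oligodendrocyte and myelin genes 0 did, and of 17 neuron markers 0 did.

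A list of odorant, taste and similar receptors, picked with the values in view, had 154 of 1229 members at an unadjusted F p under 0.05 (12.53%, against 13.0% of all genes) and 1 past the threshold, Olfr1393. Their median difference was 0.071 at 6 h, 0.039 at 1 day and -0.026 at 4 days, and their median vehicle movement from 1 day to 4 days was 0.11. Serpina3n, an acute-phase protease inhibitor of astrocytes, ran from -0.22 at 6 h to 0.10 at 1 day and 0.13 at 4 days (adjusted p = 0.0980). Bst2, an interferon-induced membrane protein, ran from 0.26 and 0.20 to -0.21 (adjusted p = 0.104).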
